A study of Mus musculus with 2 samples.

Results

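The genes described here carry symbols of mitochondrial ribosomal proteins, although Mrps36 among them encodes no part of the ribosome. They were taken as all gene probes whose symbol starts with Mrps or Mrpl followed by a number, which gave 77 genes, 29 with small subunit symbols and 48 with large subunit symbols, of 37074 gene names on the array. All 77 were measured, that is, well above background on both arrays at 1 or more probes, as were 22921 gene names in all. The members have 119 probes, 113 of them well above background on both arrays.

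Unfertilised oocytes came from mice of the C57BL/6 strain. The MUL1 -/- pool held 123 oocytes of knockout mice and the MUL1 +/+ pool held 213 oocytes of wild-type mice, and each pool gave the amplified, Cy3-labelled RNA for 1 Agilent mouse array of a single colour. Mul1 is a ubiquitin ligase of the mitochondrial outer membrane, and the comparison asks which transcripts differ in oocytes without it. Mul1 itself had a processed signal of 1074 on the knockout array against 3353 on the wild-type array at a RefSeq probe, a log2 difference of -1.61. At an Ensembl probe it had 23.1 on the knockout array against 19.3 on the wild-type array (0.29), and the mean of both is -0.66. The deleted stretch of Mul1, so also whether these probes lie in it, the age of the mice and how many mice gave each pool are not given in the sources used here. With 1 array per genotype no difference has a replicate check and no test was possible, so every difference below compares 2 arrays, and the number of arrays limits its precision. In pooled cells, fewer cells of a type and less RNA per cell cannot be told apart.

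Mitochondria keep their own ribosomes, which translate only the few inner membrane proteins of the respiratory chain that mitochondrial DNA encodes. The small subunit binds and decodes the messenger RNA, and the large subunit joins the amino acids and releases the chain through an exit tunnel that faces the inner membrane. All of its proteins are encoded in the nucleus, made in the cytosol and imported, so their messenger RNAs appear among the polyadenylated transcripts of the oocyte, a cell that holds a very large number of mitochondria and stores maternal messenger RNA for the embryo.

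As a family, these genes read nearly the same on both arrays. Differences are log2 values of the knockout array minus those of the wild-type array, each array scaled to its own 75th percentile of signal, while signals are printed before this scaling. The median was 0.03 over the 77 members, and the median over all 22921 measured genes was also 0.03. The members spread less than genes at large, with an SD over genes of 0.16 against 0.44 for all measured genes. Within 0.2 of no difference lay 68 members (88.3%), against 52.4% of all measured genes. A difference of at least 0.32, the smallest counted here, was read for 3 members, of which Mrps15 was higher on the knockout array and Mrps31 and Mrps18a were lower, and no member reached 1.5-fold. Of all measured genes 30.5% were at least 0.32 apart (17.2% higher and 13.4% lower), 13.0% at least 1.5-fold apart and 4.29% at least 2-fold apart, so the members' share lay below that of genes at large at each size. No test stands behind these counts. Spread over all genes narrowed with signal, from an SD of 0.55 in the dimmest of 5 equal signal classes to 0.26 in the brightest. The brightest class held 50 of the members, with an SD of 0.10. The next held 23, with an SD of 0.24 (0.34 over all genes there). The part of signal in the members' shares was not tested.

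The subunits had medians close to each other. The median was 0.02 for the 29 genes with small subunit symbols, which ran between -0.48 and 0.56, with 20 above 0 and 9 below. It was 0.04 for the 48 large subunit genes, which ran between -0.29 and 0.24, with 32 above 0 and 16 below. The medians thus lay 0.02 apart, small minus large being -0.02, while single genes within a subunit differed by an SD of 0.19 in the small and 0.14 in the large subunit. Genes above 0 made up 67.5% of the members and 54.8% of all measured genes. Subunits here go by symbol, so Mrps18a, Mrps30 and Mrps36 count as small. With subunits by place in the ribosome (76 members), small minus all measured genes was -0.01 in median and large minus all 0.00.

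**Figure D1:**
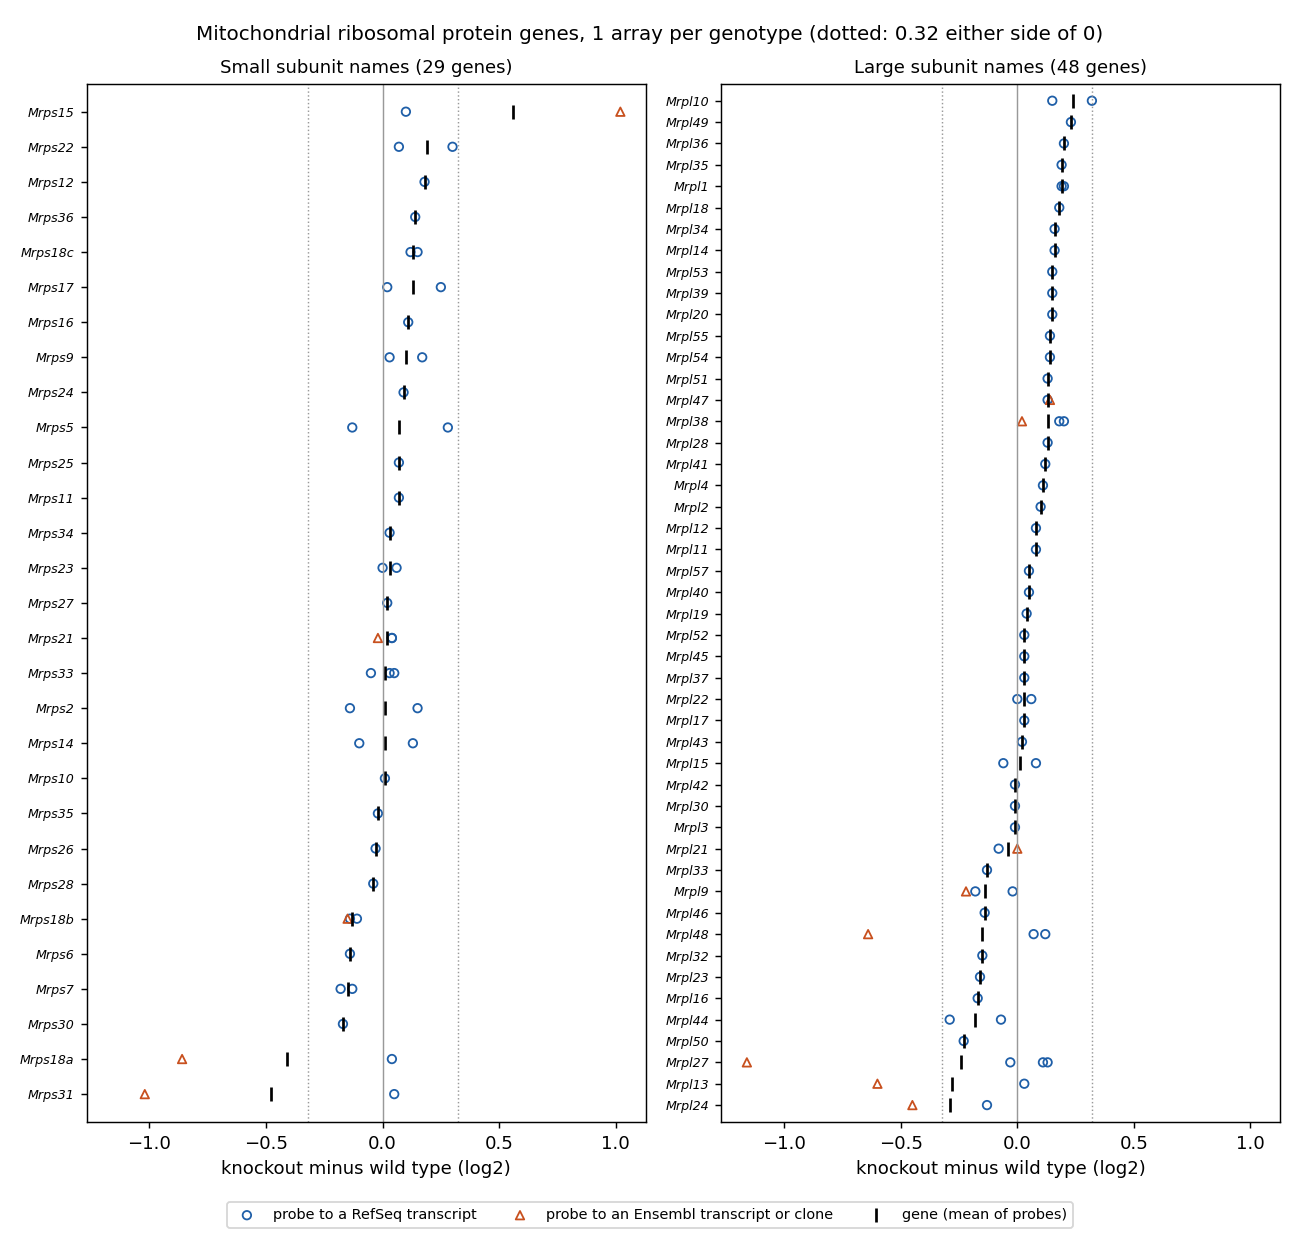
Difference between the knockout and the wild-type array (x axis, log2) for each gene, by small and large subunit symbol and sorted by gene value (black bar, mean of the measured probes). Circles are probes to RefSeq transcripts and triangles probes to Ensembl transcripts or clones. The circles sit between -0.29 and 0.32, and the triangles reach -1.16 and 1.02.

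The 3 gene values past 0.32 came from members whose probes disagreed. The array carries 100 member probes designed to RefSeq transcripts and 19 to other targets, 14 of them Ensembl transcripts and 5 cDNA clones or ESTs. In Mrps31, Mrps18a, Mrps15, Mrpl27, Mrpl13, Mrpl48 and Mrpl24, a probe of the second kind read apart from the RefSeq probe of the same gene. For the first 5 of these genes the opening 30 bases of the 60-base probes are given below, from the array's own annotation, so that the transcript stretch behind each value can be found, with the hexamer AATAAA, the polyadenylation signal, in capitals where it falls in them.
Mrps31, clone AK078073: tgtgctgcccttaaatatgcctgaAATAAA
Mrps31, RefSeq NM_020560: agttcccagtcaacaatgaagcaggtttag
Mrps18a, Ensembl ENSMUST00000147672: acttatgctgggctaacctgttgtcttaaa
Mrps18a, RefSeq NM_026768: aagatgatgcattagtgggagcaggacttc
Mrps15, Ensembl ENSMUST00000138739: ggacagggctgaagttctgtgttctacttt
Mrps15, RefSeq NM_025544: tgccagagaacccttcaaatgccgtaccag
Mrpl27, clone AK080324: acacgtgagtaacttagttgtaatctcgaa
Mrpl27, RefSeq NM_053161: ccatctataatctcttcttgtgtgtctgaa
Mrpl13, Ensembl ENSMUST00000170135: gtgggttcttttgtattagtccatggttca
Mrpl13, RefSeq NM_026759: gaacattacagcaagagactgaatgtttcc
The file headers place the probes on mouse build mm9. No pair shares bases: the probes of Mrps31 lie on the plus strand at chr8:23536607-23536666 (clone) and chr8:23538340-23539688 (RefSeq, a stretch longer than the probe, so that it maps in pieces), and those of Mrps18a at chr17:46264387-46264446 (Ensembl) and chr17:46265584-46265643 (RefSeq), also on the plus strand. Those of Mrps15 lie on the plus strand at chr4:125728892-125728951 (Ensembl) and chr4:125732712-125732771 (RefSeq), those of Mrpl27 on the plus strand at chr11:94515618-94515677 (clone) and chr11:94521320-94521379 (RefSeq), and those of Mrpl13 on the minus strand at chr15:55381049-55381108 (Ensembl) and chr15:55365795-55365854 (RefSeq). No gene annotation of mm9 was used, so whether a probe falls in an exon, an intron or an untranslated region is not given.

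Mrps31 encodes a small subunit protein found only in mitochondria. Its clone probe had a processed signal of 71.1 on the knockout array, against 147 on the wild-type array, and its RefSeq probe 5561 on the knockout array, against 5496 on the wild-type array. The clone probe was thus 1.02 lower on the log2 scale on the knockout array, and the RefSeq probe differed by 0.05. The gene value of -0.48, the lowest of the family, is the mean of these 2 probes.

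Mrps18a has a small subunit symbol, but its protein sits in the large subunit of the mammalian mitochondrial ribosome. The Ensembl probe had a signal of 68.9 on the knockout array, against 128 on the wild-type array, a difference of -0.86. The RefSeq probe had 5575 on the knockout array and 5557 on the wild-type array, a difference of 0.04. As in Mrps31, the probes differ, and the gene value of -0.41 lies between them.

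Mrps15, the counterpart of a bacterial protein that binds the small subunit ribosomal RNA, read the other way. The Ensembl probe had a signal of 65.8 on the knockout array, against 33.3 on the wild-type array, a difference of 1.02. The RefSeq probe had 10970 on the knockout array and 10490 on the wild-type array, a difference of 0.10. The highest gene value of the family, 0.56, is again a mean of a pair of unlike probes.

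In the large subunit, Mrpl27 is the counterpart of a bacterial protein close to the site of peptide bond formation. Its clone probe had a signal of 18.1 on the knockout array, against 41.2 on the wild-type array, a difference of -1.16, and the knockout value lies close to 15.8, the lowest signal that counted as measured on that array. Its 3 RefSeq probes, of which the printed one read -0.03, had differences of -0.03, 0.11 and 0.13. Mrpl13 had 135 on the knockout array against 209 on the wild-type array at the Ensembl probe (-0.60), and 7361 on the knockout array against 7373 on the wild-type array at the RefSeq probe (0.03). Mrpl48 had 23.4 on the knockout array against 37.3 on the wild-type array at an Ensembl probe (-0.64), while its RefSeq probes read 0.07 and 0.12. Mrpl24, whose bacterial counterpart lies at the mouth of the exit tunnel, read -0.45 at an Ensembl probe, with 60.3 on the knockout array against 84.4 on the wild-type array. Its RefSeq probe, at 14540 on the knockout array and 16310 on the wild-type array, read -0.13. A second Ensembl probe of Mrpl48 was well above background in the wild type alone, with signals of 10.96 in the knockout and 23.3 in the wild type, and was at least 1.44-fold lower on the knockout array.

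**Figure D2:**
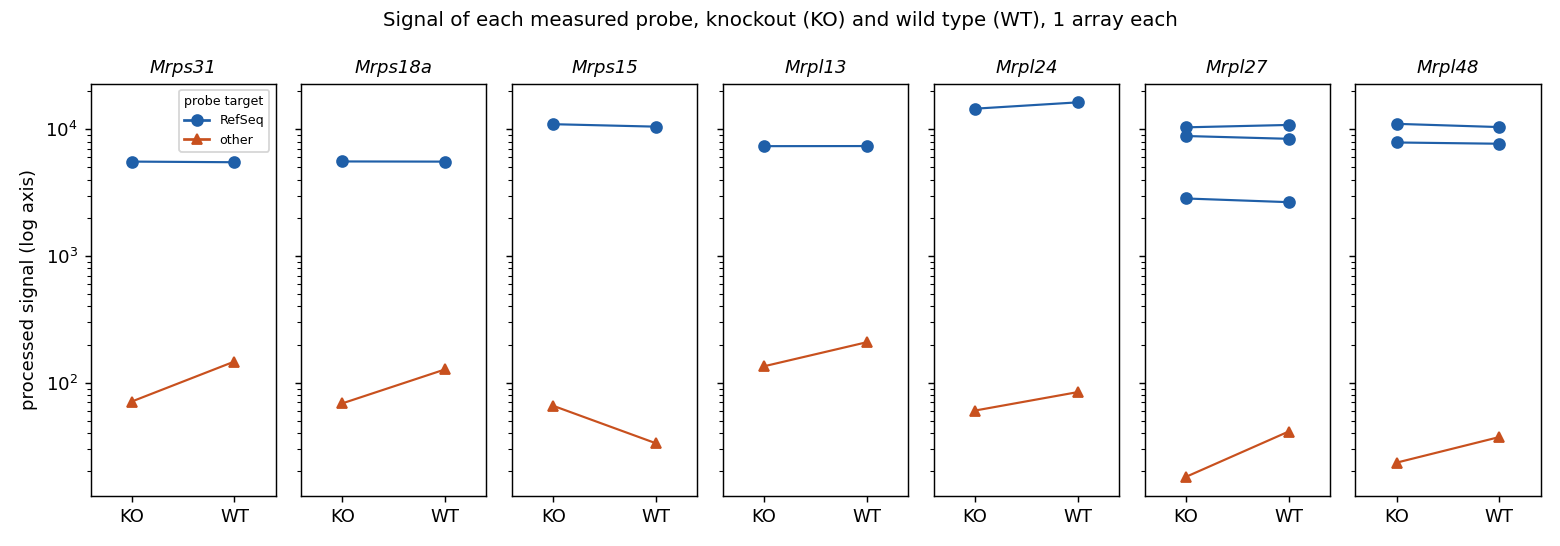
Processed signal (y axis, log scale) of every measured probe of the 7 members with unlike probes, on the knockout (KO, left) and the wild-type array (WT, right), 1 array each. Lines join the same probe on both arrays. Lines of RefSeq probes are close to level, and those of other probes slope, downward towards the wild type in Mrps15 and upward in the other 6 members.

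Counts by target were then made over the whole family. The 100 RefSeq probes ran between -0.29 and 0.32, with 1 at least 0.32 higher (a probe of Mrpl10) and 0 at least 1.5-fold apart. Of all measured RefSeq probes 27.2% were at least 0.32 apart, 16.2% being higher, and 10.8% were at least 1.5-fold apart. None of the 100 differed by more than 2 times the scanner's own error of the difference, which 16.8% of all measured RefSeq probes did. With a median error of 0.20, this follows from the range of the 100 probes and is no separate result. The 13 measured probes to other targets had a median of -0.22, and 6 of them were at least 1.5-fold apart, 1 higher and 5 lower. All 6 are probes of Mrps31, Mrps18a, Mrps15, Mrpl27, Mrpl13 and Mrpl48, which are named above for unlike probes. These counts thus add no further member. Outside those members and Mrpl24, the measured probes to other targets ran between -0.22 (Mrpl9) and 0.14 (Mrpl47). Among all measured probes to such targets, 20.8% were at least 1.5-fold apart, 7.84% higher and 12.9% lower. This split by target was made after the values were seen, and the scanner's error covers the spot and not the pool of oocytes or the amplification.

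With RefSeq probes alone, the medians were 0.04 in the small subunit and 0.06 in the large subunit, and the range narrowed to between -0.17 and 0.19 in the small and between -0.23 and 0.24 in the large subunit. No member was then 0.32 apart, against 27.1% of the 17002 genes measured with such probes, and 57 members were above 0 and 20 below. Probe signal moves with this split. With all measured probes put into 5 equal classes of mean signal, 9 of the 13 probes to other targets fell in the dimmest 2 classes, against 2 of the 100 RefSeq probes. In the dimmest class 31.7% of all measured probes lay within 0.2 of no difference, and in the brightest class 76.2%. The part of signal in the split was not tested.

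**Figure D3:**
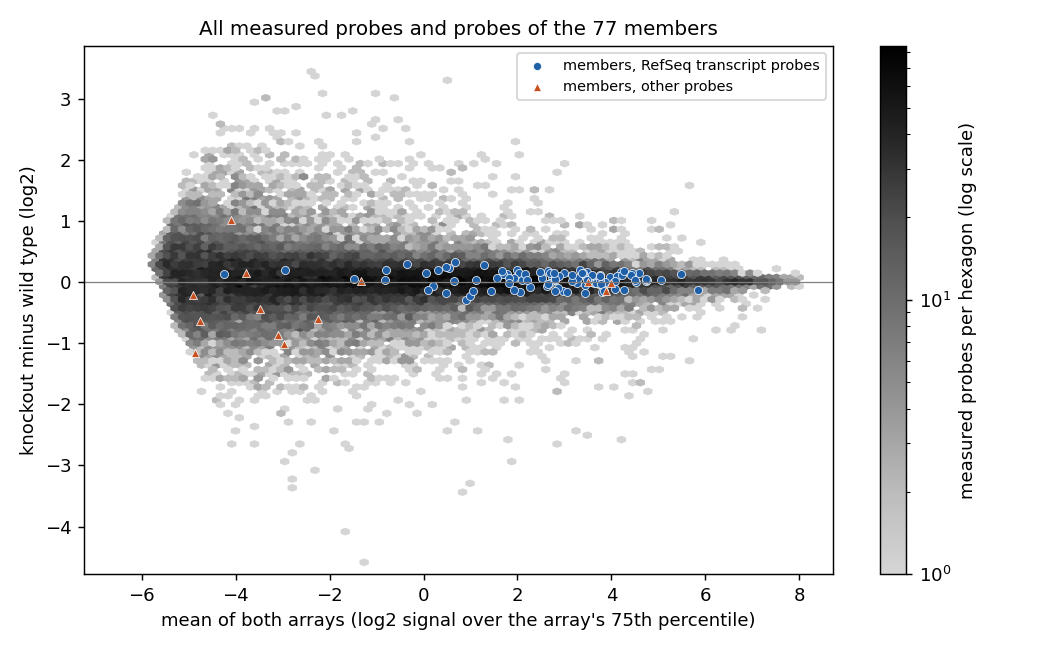
Difference between the knockout and the wild-type array (y axis, log2) against the mean log2 signal of both arrays relative to the 75th percentile (x axis). Hexagons count all measured probes, blue points are member probes to RefSeq transcripts and orange triangles are member probes to other targets. Spread grows towards low signal, and the triangles far from 0 lie at the low end.

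The array also offers a check of spot against spot, because some probes target nearly the same stretch. The pair for Mrps18c, one of the 3 mammalian counterparts of bacterial ribosomal protein S18, starts 7 bases apart on chr5 (chr5:101233411-101233470 and chr5:101233418-101233477, plus strand, mm9), and the bases common to both printed runs are in capitals.
Mrps18c, upstream probe: tcagataCCGAGAATAAATTTTGTATTTGT
Mrps18c, downstream probe: CCGAGAATAAATTTTGTATTTGTgaagttc
The upstream probe had a signal of 7414 on the knockout array against 6984 on the wild-type array (0.12), and the downstream probe 8617 on the knockout array against 7969 on the wild-type array (0.15). Overlapping probes of Mrps18b read -0.15 and -0.11, and those of Mrps21 read -0.02 and 0.04. Before rounding, the overlapping probes differed by at most 0.05. RefSeq probes with no shared base were as close in Mrps21 (both 0.04) and Mrpl1 (0.19 and 0.20), and farther apart in Mrps5 (-0.13 and 0.28). Of the 28 members with several measured probes, 14 had all of them on the same side of 0 and 6 had probes spanning at least 0.5.

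Among the small subunit genes with RefSeq probes only, the highest were Mrps22, Mrps12, Mrps36, Mrps17 and Mrps18c. Mrps22, a protein of the small subunit found only in mitochondria whose human gene is mutated in some forms of ovarian failure, had 689 on the knockout array against 573 on the wild-type array at one probe and 4652 on the knockout array against 4522 on the wild-type array at the other, with a gene value of 0.19. Mrps12, the protein of the decoding centre, had 16090 on the knockout array against 14510 on the wild-type array, a difference of 0.18. Mrps17 averaged 0.13, as did Mrps18c. These gene values are no larger than the scanner's error of a single probe's difference, which had a median of 0.20. Repeated spots of a probe varied less than that error, with a median SD of the log2 difference of 0.043. Neither measure covers the pool of oocytes or the amplification.

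At the lower end of the small subunit stood Mrps7, which binds the head of the small subunit, with signals of 2875 and 7985 at 2 probes on the knockout array against 3210 and 9239 on the wild-type array, and a gene value of -0.15. Mrps6 read -0.14, with 10810 on the knockout array against 12160 on the wild-type array, and Mrps18b averaged -0.13 over 3 measured probes. With its clone probe not above background included, the Mrps18b average was 0.26. That clone probe lies on the plus strand and the 3 measured probes on the minus strand, so 0.26 does not stand for 1 transcript. Mrps30, whose protein sits in the large subunit despite its symbol, had 6195 on the knockout array against 7116 on the wild-type array, a difference of -0.17. Mrps36, a subunit of the 2-oxoglutarate dehydrogenase complex and no part of the ribosome, had 5681 on the knockout array against 5265 on the wild-type array, a difference of 0.14.

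The highest large subunit genes were Mrpl10, Mrpl49, Mrpl36, Mrpl1, Mrpl35 and Mrpl18. Mrpl10, the base of the stalk that recruits translation factors, had 1417 and 3418 on the knockout array against 1159 and 3146 on the wild-type array at 2 probes, with a gene value of 0.24. Its partners in the stalk, Mrpl11 and Mrpl12, both read 0.08. Mrpl49 had 1254 on the knockout array against 1091 on the wild-type array (0.23), and Mrpl36 had 8471 on the knockout array against 7560 on the wild-type array (0.20). Mrpl1 and Mrpl35 both stood at 0.19 and Mrpl18 at 0.18.

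Below 0 in the large subunit, after Mrpl24, Mrpl13 and Mrpl27, came Mrpl50 at -0.23 (1453 on the knockout array against 1745 on the wild-type array), Mrpl44, which belongs to the ribonuclease III family, at -0.18, and Mrpl16 at -0.17. The tunnel proteins Mrpl22, Mrpl23 and Mrpl24 had gene values of 0.03, -0.16 and -0.29, and at RefSeq probes Mrpl24 read -0.13. Mrpl45, which ties the ribosome to the inner membrane, differed by 0.03, with 10710 on the knockout array and 10750 on the wild-type array. Mrpl32, which is trimmed by the m-AAA protease before assembly, read -0.15.

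By ancestry, proteins with a bacterial counterpart had a median of 0.07 in the small subunit (16 genes, 13 above 0) and 0.06 in the large (30 genes, 19 above 0). Proteins found only in mitochondria had a median of 0.02 in the small subunit (10 genes, 6 above 0) and 0.04 in the large (18 genes, 13 above 0). Mrps18b (-0.13) was listed among these 10, although it is, like Mrps18c, a counterpart of bacterial S18. All 4 medians lie within 0.05 of one another. Of all measured genes 54.8% were above 0.

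Lists for other steps of mitochondrial translation had medians between -0.04 and 0.00 on the same scale, and between 0.09 and 0.14 with scaling on spike-in controls. Ribosomal proteins known by other symbols, 6 of 6 measured, had a median of -0.01, with Chchd1 highest at 0.14 and Ptcd3, which contacts the messenger RNA entry, lowest at -0.20. The 30 genes of ribosome assembly and ribosomal RNA processing had a median of 0.00. At least 0.32 higher were 2 of them and at least 0.32 lower 2, against 17.2% and 13.4% of all measured genes. Ybey, an endoribonuclease of the small subunit, was highest at 0.33. Afg3l2, a subunit of the m-AAA protease that processes Mrpl32, was lowest at -0.58, with 118 and 3421 on the knockout array against 208 and 4578 on the wild-type array at 2 RefSeq probes.

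The 12 translation factors had a median of -0.01 (-0.16 with no filter on dim probes), with Mtfmt, which formylates the initiator transfer RNA, highest at 0.32 and Mrrf, the ribosome recycling factor, lowest at -0.44. In Mrrf an Ensembl probe read -1.48, with 20.5 on the knockout array against 58.2 on the wild-type array, while 3 RefSeq probes read -0.01, -0.03 and -0.23. Probes to other targets in these lists also read higher than the RefSeq probe of their gene, as a clone probe of Slirp did (0.64, RefSeq 0.01) and an Ensembl probe of Mterf3 (0.50, RefSeq 0.10). The list of mitochondrial aminoacyl-tRNA synthetases, which charge transfer RNA with amino acids, had 20 genes and a median of -0.04 (0.09 with spike-in scaling). It also holds Qrsl1, Gatb and Gatc, which are subunits of an amidotransferase and not synthetases. Of the 20 genes 13 were below 0 and 35.0% above, against 54.8% of all measured genes above 0. Pars2 was highest at 0.31, and Mars2 lowest at -0.65 with 61.4 on the knockout array against 98.6 on the wild-type array at its 1 probe. The 6 genes listed for insertion into the inner membrane, of which some, such as Letm1 and Surf1, are not themselves insertases, had a median of 0.00. The ends of their range were Letm1 at 0.19 and Cox18 at -0.13.

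The nearest comparison families were the proteins of the cytosolic ribosome and the respiratory subunits encoded in the nucleus, which meet the products of the mitochondrial ribosome in the same complexes. The 81 measured cytosolic ribosomal proteins (of 84) had a median of 0.00 and an SD over genes of 0.11, with Rps4l at 0.46 and Rpl39l at -0.55 as their ends. The list of respiratory subunits had 75 genes, a median of 0.07 and an SD of 0.15, with Ndufa9 at 0.47 and Atp5g3 at -0.37. It also holds Atp5s and Atp5sl, which are not structural subunits. Of the 75 genes 51 were above 0 (68.0%), against 54.8% of all measured genes. The members' median of 0.03 and SD of 0.16 stand beside these as values, and no test separates them.

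**Figure D4:**
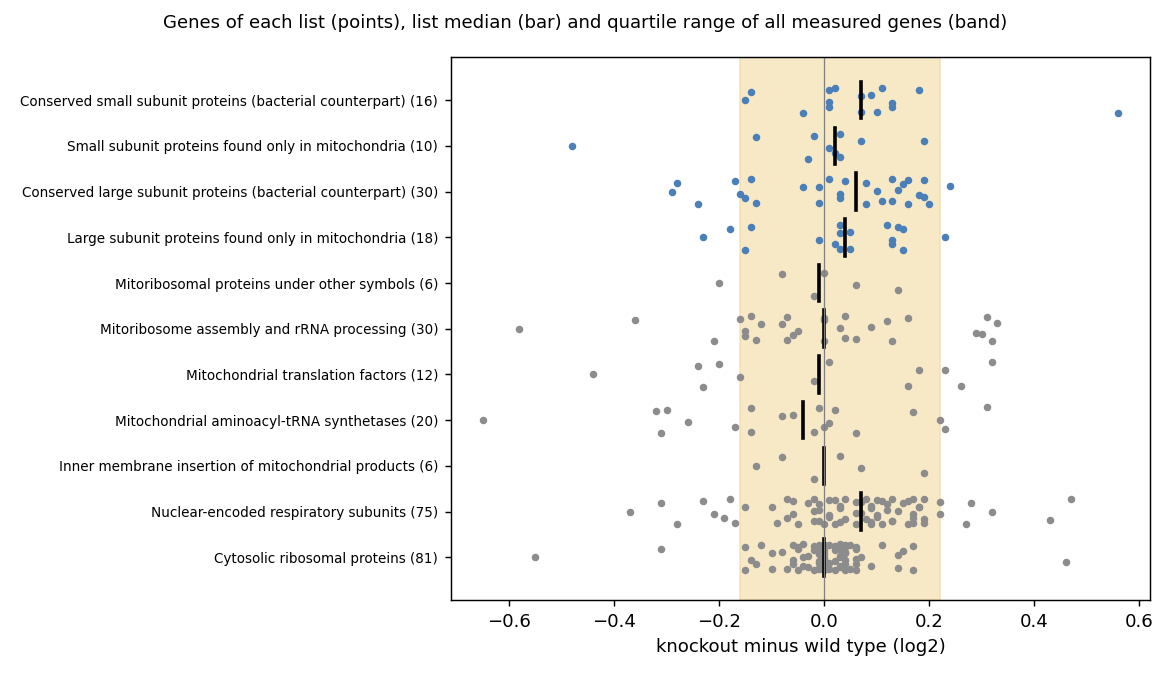
Difference between the knockout and the wild-type array (x axis, log2) for the genes of 4 classes of ribosomal protein and 7 other lists (points, number measured in parentheses), with the list's median as a bar. The shaded band is the quartile range of all measured genes, between -0.16 and 0.22, and the medians of the 11 lists drawn lie inside it. The 3 genes placed outside the small subunit and the cell type markers are not drawn.

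Signal on the arrays is a further property of the family. With measured genes put into 5 equal classes of mean signal, 50 of the 77 members fell in the brightest class, 23 in the next, 3 in the middle, 1 in the one below and 0 in the dimmest. All 50 in the brightest class lay within 0.2 of no difference, against 75.4% of all genes there. In the next class 60.9% of the members did so, against 62.0% of all genes there. AATAAA stood in 27 member probes (23.9%), against 10.8% of all measured probes.

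Short motifs of known factors were counted on both strands of the members' start regions (from 250 bases before to 50 after the start in RefSeq, GRCm38.p6), where 68 of the 77 members were matched. The ETS motif CCGGAAG stood in 25 members (36.8%), against 12.9% of 17492 protein-coding genes, and the YY1 motif AAGATGGC in 12 (17.6%), against 3.57%. The NRF1 core GCATGCGC stood in 8 members (11.8%), against 3.94%. The TATA box TATAAA stood in 5 (7.35%), against 14.8%, and the E-box CACGTG in 5 (7.35%), against 8.91%. A match is a description of these letters in this window only.

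A gene on the opposite strand started within 500 bases of the start of 21 of the 68 members (30.9%), against 7.53% of all protein-coding genes. Mrps11 and Mrpl46, a small and a large subunit gene, form such a pair and read 0.07 and -0.14. Mrps12 (0.18) faces Sars2, the mitochondrial seryl-tRNA synthetase, with a gene value of -0.14 from a clone probe at -0.35 and a RefSeq probe at 0.07. Mrpl18 (0.18) faces Tcp1, a subunit of the cytosolic chaperonin, with a gene value of -0.86 from 3 probes between -1.43 and 0.12, the RefSeq probe being the highest. Of 20 measured neighbours, with the pair of members counted once from each side, 9 lay on the same side of 0 as the member. Some of these signs rest on values close to 0, such as -0.01 for Mrpl30 and -0.02 for Fau, the neighbour of Mrpl49. The same count was not made over all facing gene pairs, so the 9 have no share to be read against.

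For the whole arrays, 36488 probes (64.5%) were well above background in the knockout and 37369 (66.0%) in the wild type, with no saturated gene spot. Of 15 oocyte markers 14 were measured, with a median of 0.04, between Dppa3 at -0.21 and Ooep at 0.94, and a summed signal of 222000 on the knockout array against 245000 on the wild-type array. Their median ran between -0.08 and 0.17 over the alternative settings, being below 0 in 3 of 15, and Figla was not well above background on both arrays. Cumulus and granulosa markers, 15 of 15 measured, had a median of 0.06, between Star at -0.96 and Has2 at 1.16, and a sum of 200000 on the knockout array against 197000 on the wild-type array. Myeloid markers were all 12 above 0, with a median of 1.79 and a summed signal of 85900 on the knockout array against 33900 on the wild-type array. The 5 red cell markers were all below 0, with a median of -1.39 and a sum of 27600 on the knockout array against 87000 on the wild-type array. The 5 oviduct markers were all above 0, between Krt8 at 0.06 and Ovgp1 at 1.54, with a median of 0.76 (0.42 with normexp). Their sum was 121000 on the knockout array against 75000 on the wild-type array, of which Ovgp1 alone gave 69100 against 24270. Foxj1, Epcam and Pax8 were dim, with signals of at most 185. The part of these cells in the members' values was not tested.

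**Figure D5:**
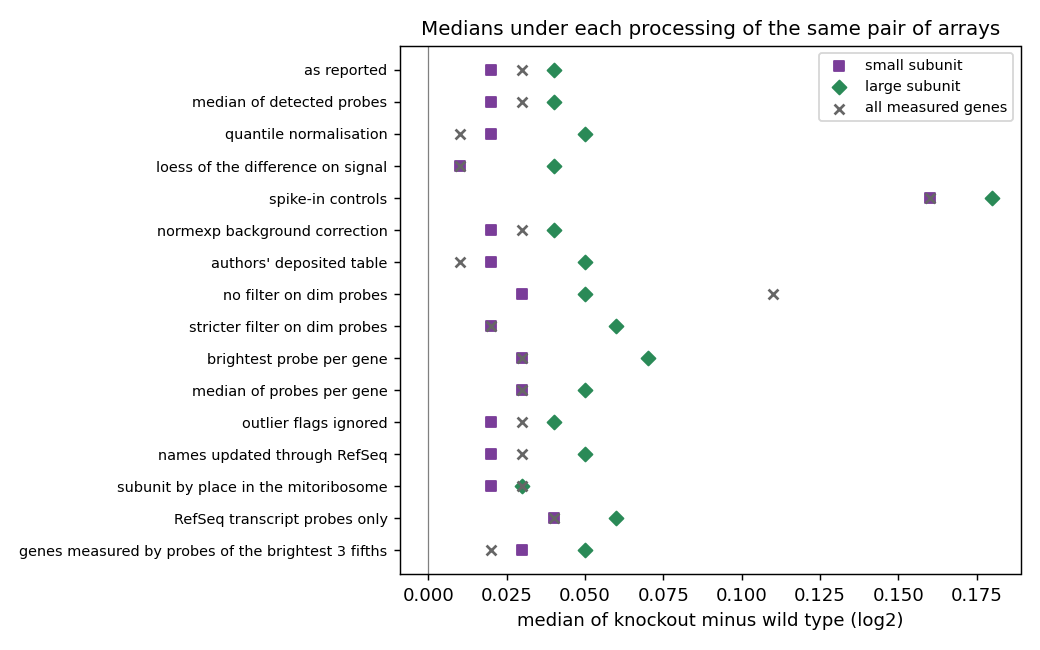
Median difference between the knockout and the wild-type array (x axis, log2) over the small subunit, the large subunit and all measured genes, under the reported processing and 15 others (rows). Scaling on spike-in controls moves all 3 medians to between 0.16 and 0.18, and the small subunit median lies left of the large in every row.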

How the data were processed

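Spot intensity was measured on 1 Agilent array of design 074809 per genotype, both on the same slide. Per the file headers the deposited scanner intensity was background-subtracted and detrended within each array by Feature Extraction 10.7.1.1. The submitters' processing notes give 9.5.1.1 instead. The authors' series-wide intensity table, deposited on a linear scale and quantile normalised as its values show (sorted columns within 0.0243% of each other), was used as an alternative. RNA was purified on columns and amplified with a low-input kit, per the labels' protocols, and amplification of small, unequal pools can distort ratios.

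Processed intensity was put on the log2 scale with no pseudocount, outlier-flagged spots left out (84 on the knockout and 88 on the wild-type array, none of a member), spots of a probe averaged, and each array's 75th percentile subtracted (a signal of 790 on the knockout and 808 on the wild-type array). A gene is the mean of its probes well above background on both arrays, and 56600 of 56605 probes were used. Probes printed at 8 or more usable spots (286) had a median SD between spots of 0.043. Probe names are those of the array, and all 77 symbols were in RefSeq. RefSeq lists 78 protein-coding genes and 6 pseudogenes of this pattern. The missing one, Mrpl58, is on the array as Ict1, a rescue peptidyl-tRNA hydrolase, which read 0.06. Probes that also match a pseudogene cannot be told apart here.

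Members and lists were chosen with earlier results of these data known. Named are, per subunit, the 6 highest and 6 lowest genes, the 8 members with the most divergent probes, Mrps18a, Mrps30, Mrps36, the ends of each list and Mul1; Slirp, Mterf3, Mrps11, Mrpl46 and members named for a role or for overlapping probes were added after values were seen, as were Mrpl18's and Mrps12's neighbours. Promoter entries were matched for all members except Mrpl13, Mrpl15, Mrpl19, Mrpl38, Mrpl4, Mrpl54, Mrps28, Mrps34 and Mrps35. Scripts in Python 3.11.15 (numpy 2.4.6, pandas 2.3.3) and R 4.3.3 (limma 3.58.1, for normexp with an offset of 50) were tested on simulated data.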

Additional observations from a re-analysis of the deposited data

How the results depend on the processing

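The 15 alternatives, 13 listed with the design and 2 added after seeing the data, left the small subunit median between 0.01 and 0.16 and the large subunit median between 0.03 and 0.18, with small minus large between -0.04 and -0.01 in all 15. Scaling on 8 spike-in probes gave the highest values, 0.16 and 0.18, and moved the median of all measured genes to 0.16 as well, so that the small subunit lay 0.00 and the large 0.02 above it. The members at least 0.32 apart on the log2 scale, 3 as reported, numbered 6 with spike-in scaling, 5 with no filter on dim probes and 0 with normexp, with the brightest probe per gene, with RefSeq probes only or with genes measured by probes of the brightest 3 of 5 signal classes (both added). Those at least 1.5-fold apart numbered 1 with spike-in scaling and 1 with no filter, and 0 as reported. Mrps31 read 0.05 and Mrps18a 0.04, against the gene values of -0.48 and -0.41, with the brightest probe, with RefSeq probes only and with the brightest 3 classes, where only their RefSeq probe is left. Only the members named by rule were followed singly through the settings, and of these others below 0 as reported also read above 0 in some. They were Mrps18b in 1 (0.26 with no filter, which adds its plus-strand clone probe), Mrpl13 in 3 (0.03), Mrpl27 in 4 (up to 0.07) and Mrpl48 in 5 (up to 0.12). Members not named by rule, some close to 0 such as Mrpl42 (-0.01), were not followed, so this is no full list of sign changes. Of all genes at least 1.5-fold apart (2986 as reported), 60.1% were higher on the knockout array, 77.1% with spike-in scaling and 71.1% with RefSeq probes only. The total was 1796 higher and 1190 lower as reported, 719 and 484 with normexp, 5363 and 3281 with no filter, 923 and 708 with the stricter filter (4 times the floor given at the end), 1355 and 550 with RefSeq probes only, and 553 and 485 with the brightest 3 classes. Leaving out pseudogene names was not run, since no member has one. No paired analysis was possible because each genotype has 1 array and no array could be left out. Signals near 15.8 on the knockout or 12.9 on the wild-type array, the lowest well above background, limit the dim probes.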
